A study of Mus musculus with 8 samples.

Results

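Drd1, Tac1, Pdyn and Chrm4 are genes used to recognise the neurons of the direct pathway of the striatum, and their RNA was measured here in tissue labelled brain cortex. They are 4 of the 13996 genes of the deposited table, and all 4 passed the filter on low values, which kept 13982 genes with a mean FPKM not under 1 and without a 0. FPKM is a count of sequenced fragments scaled to transcript length and to the size of the library. The 4 genes were selected on the measured difference in FPKM between the diets, so that difference is given below as a description and was not tested for them. The rows of Tac1, Pdyn and Chrm4 carry the gene's name, and the row for Drd1 is named Drd in the table and was matched by its Ensembl identifier, ENSMUSG00000021478.6.

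The samples came from 8 male C57BL/6 mice, each of which gave 1 library of total RNA depleted of rRNA. All mice were obtained at 8 weeks of age, fed for 8 weeks, and were 16 weeks old at sampling. The Normal group (4 mice) ate a conventional diet, and the HFD group (4 mice) ate a diet enriched with fat, 60% by weight. FPKM summed to 562431 to 639142 in a mouse, and read depth is not known because the table holds no counts.

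The striatum lies beneath the cortex and is made up mostly of spiny projection neurons of 2 kinds. Those of the direct pathway project to the output nuclei of the basal ganglia and carry the dopamine D1 receptor, while those of the indirect pathway project to the globus pallidus and carry the dopamine D2 receptor (Drd2) and an adenosine receptor (Adora2a). Dopamine raises cyclic AMP (cAMP) in direct pathway neurons through the D1 receptor (Drd1) and the G protein subunit encoded by Gnal, and acetylcholine opposes this through the muscarinic M4 receptor (Chrm4). The same neurons release GABA together with 2 peptide families, substance P and neurokinin A from the Tac1 precursor, and dynorphins from the Pdyn precursor. None of the 4 genes is restricted to the striatum, as each is also transcribed in some cortical neurons.

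In GENCODE M21 on GRCm38.p6, Drd1 (ENSMUSG00000021478.6) lay on the minus strand of chromosome 13, from 54051183 to 54055705, with 2 basic transcripts of 2 exons each. Tac1 (ENSMUSG00000061762.12), on the plus strand of chromosome 6 at 7554879 to 7565834, had 3 transcripts of 6 to 7 exons that the table sums into 1 value. Pdyn (ENSMUSG00000027400.11) lay on the minus strand of chromosome 2, from 129686565 to 129699844, with 1 transcript of 4 exons. Chrm4 (ENSMUSG00000040495.4) was annotated on the plus strand of chromosome 2 at 91927249 to 91928688, as a single exon of 1440 bases. RefSeq starts Chrm4 5060 bases further upstream, so this GENCODE model leaves out the 5′ part of the RefSeq gene. No other gene overlapped any of the 4.

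The sequences just upstream of the 4 genes are shown because 3 of the genes were lower in every HFD mouse and 1 was not, and a reader can compare what lies before their starts. Each is reference sequence from RefSeq promoter windows on GRCm38.p6, 5′ to 3′ on the gene's strand, limited to bases outside GENCODE exons. The stretches are chr13:54055706-54055855 (minus strand) for Drd1, chr6:7554811-7554878 (plus strand) for Tac1, chr2:129699939-129700088 (minus strand) for Pdyn and chr2:91922039-91922188 (plus strand) for Chrm4. Capitals mark a match to TGACG, the core of the cAMP response element, read on the opposite strand.
Drd1: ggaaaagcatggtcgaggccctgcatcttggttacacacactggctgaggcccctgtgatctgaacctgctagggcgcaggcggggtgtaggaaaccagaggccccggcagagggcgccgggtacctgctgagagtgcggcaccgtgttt
Tac1: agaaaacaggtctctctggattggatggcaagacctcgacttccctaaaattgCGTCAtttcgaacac
Pdyn: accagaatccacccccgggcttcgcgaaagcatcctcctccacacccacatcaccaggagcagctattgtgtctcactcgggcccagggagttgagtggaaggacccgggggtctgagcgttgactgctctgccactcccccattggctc
Chrm4: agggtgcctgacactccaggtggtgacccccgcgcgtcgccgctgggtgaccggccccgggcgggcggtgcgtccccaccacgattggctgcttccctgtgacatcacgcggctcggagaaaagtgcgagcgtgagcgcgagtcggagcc

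The 250 bases before each RefSeq start of the 4 genes (6 windows) were searched on both strands for 5 motifs. The Tac1 window held the core element TGACG at 197 and at 43 bases before the start and the E-box CACGTG at 61 bases before it. Those at 43 and 61 lie within the first GENCODE exon and are not shown. The windows of Drd1, Pdyn and Chrm4 held none of the 5 motifs. Over 32851 windows of the same length, 17.8% held TGACG, 6.02% held CACGTG, 6.75% the AP-1 motif TGANTCA, 12.4% the TATA box TATAAA and 1.55% the full element TGACGTCA, which also contains TGACG. The letters G and C made up 70.0% of the Chrm4 window, 64.0% and 60.8% of the Drd1 windows, 57.2% and 44.0% of the Pdyn windows and 51.2% of the Tac1 window. A match of letters is a description of the sequence, and binding was not measured.

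Between the diets, the 4 genes split into a pair that was much lower in HFD mice, 1 that was moderately lower and 1 at a like level. Drd1 and Tac1 stood at 29.8% and 28.3% of their mean FPKM in Normal mice, Pdyn stood at 67.5% and Chrm4 at 108%. All changes below are differences of log2(FPKM + 0.1), HFD minus Normal, with the standard error from a limma fit over 13982 genes. In bulk tissue, fewer cells of a type and less RNA per cell cannot be told apart.

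Drd1, the D1 dopamine receptor, had FPKM of 18.5, 13.3, 13.4 and 9.2 in Normal mice 1 to 4 (13.6 ± 3.81, SD, n = 4). In HFD mice 1 to 4 it had 4.6, 3.6, 3.5 and 4.5 (4.05 ± 0.580). Every HFD mouse lay below every Normal mouse, and even the lowest Normal mouse, Normal 4, was at 9.2 against 4.6 in the highest HFD mouse. The log2 difference was -1.69 (SE 0.19), or 3.23-fold lower on that scale. It was the 48th lowest of 13982 genes.

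Chrm4, the M4 muscarinic receptor, had 21.7, 14.3, 13.4 and 17.6 in Normal mice (16.8 ± 3.76) and 18.3, 17.6, 19.0 and 17.3 in HFD mice (18.1 ± 0.759). All HFD values lay inside the Normal range, with 2 Normal mice below all HFD mice and 1 above all of them. The log2 difference was 0.13 (SE 0.13). It was 0.26 without Normal 1, the mouse with the highest value, and -0.12 with Normal 1 and Normal 4 as the only Normal mice, so its direction rests on which Normal mice are used.

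Tac1, the precursor of substance P and neurokinin A, had 31.1, 26.0, 25.3 and 20.8 in Normal mice (25.8 ± 4.22). In HFD mice it had 7.7, 8.1, 7.7 and 5.7 (7.30 ± 1.08). The groups were far apart, with 20.8 in the lowest Normal mouse and 8.1 in the highest HFD mouse. The log2 difference was -1.81 (SE 0.14), or 3.50-fold lower, the 41st lowest of all genes. Among the HFD mice, HFD 4 stood below the other 3.

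Pdyn, the precursor of the dynorphins, had 11.0, 9.0, 10.1 and 9.9 in Normal mice (10.0 ± 0.821) and 6.2, 7.5, 7.7 and 5.6 in HFD mice (6.75 ± 1.01). The groups did not overlap, but the gap from 7.7 to 9.0 was narrow beside those of Drd1 and Tac1. The log2 difference was -0.57 (SE 0.11), the 524th lowest of all genes.

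**Figure D1:**
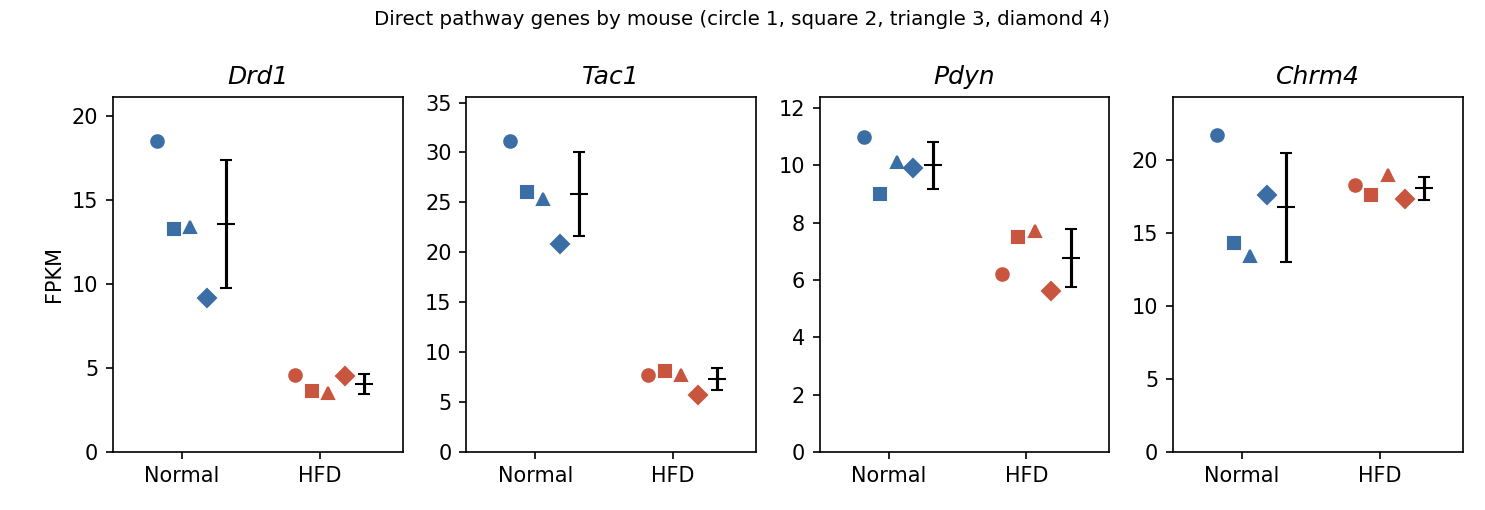
FPKM (y axis, from 0) of Drd1, Tac1, Pdyn and Chrm4 in the 4 Normal mice (blue) and 4 HFD mice (red), with black bars for the mean ± SD of each diet and marker shapes for mice 1 to 4. Drd1, Tac1 and Pdyn are lower in every HFD mouse than in any Normal mouse, while the HFD values of Chrm4, 17.3 to 19.0, lie within the Normal range of 13.4 to 21.7.

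A gene was called different where limma gave a Benjamini-Hochberg adjusted p below 0.05 and the change was over 50% (0.58 on the log2 scale). This held for 7.13% of the 13982 genes, 2.9% lower and 4.23% higher in HFD mice, and 2 of the 4 genes, Drd1 and Tac1, were among those called lower. The diet ranges did not overlap, with HFD lower, for 3 of the 4 genes and for 14.7% of all genes. Nothing is read from these member counts, since the genes were chosen by this same contrast. The median log2 difference was -1.13 over the 4 genes and 0.00 over all genes. Pdyn lay just inside the limit on size.

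FPKM is scaled by transcript length, so the levels of the 4 genes can be set in order. In Normal mice the means ran from Tac1 (25.8) over Chrm4 (16.8) and Drd1 (13.6) to Pdyn (10.0), and the ranges of each neighbouring pair overlapped. In HFD mice Chrm4 came first (18.1), followed by Tac1 (7.30), Pdyn (6.75) and Drd1 (4.05). Chrm4 lay above the other 3 genes without overlap there, Drd1 lay below them without overlap, and Tac1 and Pdyn overlapped. The length that scaled Chrm4 in the deposited values comes from GENCODE M17, whose model was not examined, so its place in this order may depend on that model.

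Ratios of FPKM within a mouse are given as a description, since they follow from the diet differences by which the genes were chosen. How often such ratios overlap between diets for other pairs of genes was not examined. The ratio of Tac1 to Drd1 was 1.68, 1.95, 1.89 and 2.26 in Normal mice 1 to 4 and 1.67, 2.25, 2.20 and 1.27 in HFD mice 1 to 4. These ranges overlapped. The ratio of Pdyn to Drd1 was 0.595, 0.677, 0.754 and 1.08 in Normal mice and 1.35, 2.08, 2.20 and 1.24 in HFD mice, with no overlap. The ratio of Chrm4 to Drd1 was 1.29 ± 0.421 in Normal mice and 4.54 ± 0.755 in HFD mice (SD, n = 4), again with no overlap.

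Set against Ppp1r1b and Rgs9, genes of striatal neurons of both pathways, the ratios examined overlapped between the diets. This does not show that they were equal, and it cannot be extended to other genes of both pathways. Among those, log2 differences were as far apart as -2.60 for Syndig1l, -1.16 for Pde10a and -0.68 for Adcy5, and ratios to them are not given. The ratio of Drd1 to Ppp1r1b, which encodes the phosphatase inhibitor DARPP-32 of both kinds of projection neuron, was 0.150 ± 0.00804 in Normal mice and 0.152 ± 0.0414 in HFD mice. The ratio of Tac1 to Ppp1r1b was 0.291 ± 0.0278 and 0.272 ± 0.0635, and the ranges overlapped in both cases. The ratio of Drd1 to Rgs9, which speeds the switching off of G proteins, was 0.587 ± 0.0192 and 0.786 ± 0.140. This overlap was slight, with 0.604 as the highest Normal ratio and 0.603 as the lowest HFD ratio. Values rounded to 0.1 FPKM cannot resolve it.

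Against Drd2 and Penk, genes of the indirect pathway, the proportions differed. This does not extend to the whole pathway. Gpr6, another of its genes, had a log2 difference of -1.63, close to the -1.69 of Drd1 and the -1.81 of Tac1, and ratios to it are not given. The ratio of Drd1 to Drd2 was 2.01 ± 0.251 in Normal mice (at most 2.20) and 9.81 ± 2.54 in HFD mice (at least 6.57), without overlap. Drd2 was only 0.3 to 0.7 FPKM in HFD mice and the table is rounded to 0.1, so these HFD ratios are coarse. The ratio of Tac1 to Penk, the enkephalin precursor, was 0.242 ± 0.0343 in Normal mice and 0.667 ± 0.167 in HFD mice, without overlap and at levels where rounding matters little. Apart from that pathway, the ratio of Chrm4 to Chrm1, the M1 muscarinic receptor, was lower in HFD mice. It was 0.757 ± 0.0737 in Normal mice and 0.525 ± 0.0188 in HFD mice, without overlap.

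**Figure D2:**
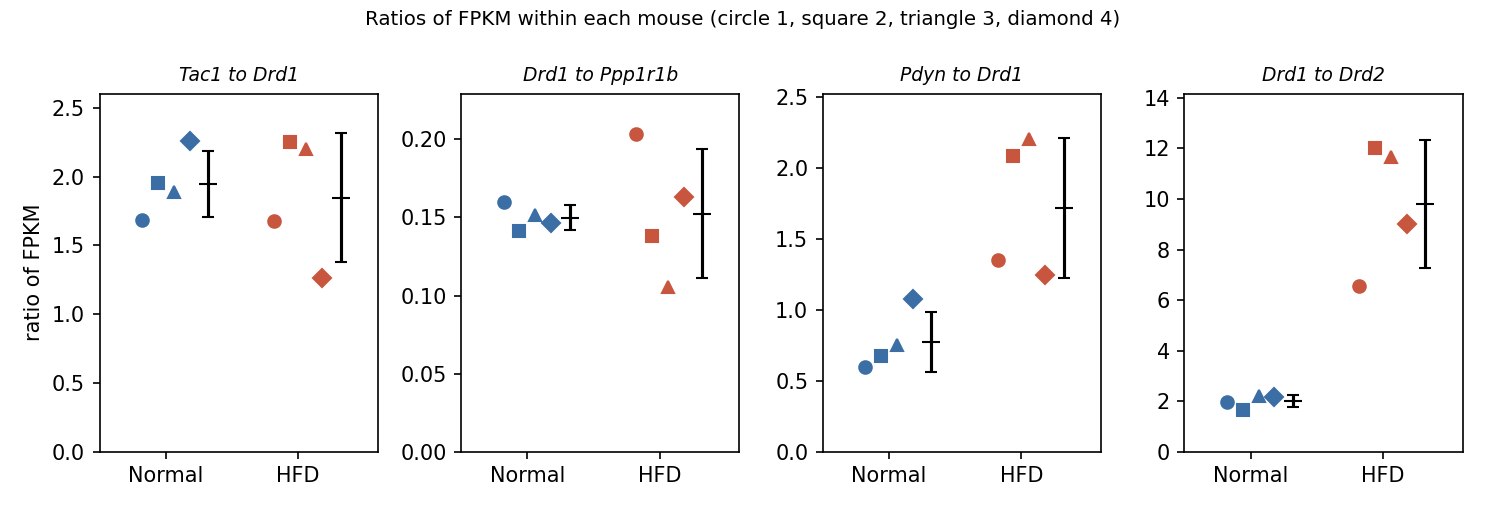
Ratios of FPKM within each mouse (y axis, from 0) for Tac1 to Drd1, Drd1 to Ppp1r1b, Pdyn to Drd1 and Drd1 to Drd2, with points for the 4 Normal (blue) and 4 HFD (red) mice and black bars for the mean ± SD. The first pair of ratios overlaps between diets, while Pdyn to Drd1 (at most 1.08 in Normal, at least 1.24 in HFD) and Drd1 to Drd2 (at most 2.20, at least 6.57) do not.

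Within a diet, the 4 genes varied by different amounts. The coefficient of variation among Normal mice was 28.0% for Drd1, 22.5% for Chrm4, 16.3% for Tac1 and 8.21% for Pdyn. Among HFD mice it was 14.3% for Drd1, 14.8% for Tac1, 15.0% for Pdyn and 4.21% for Chrm4. Normal 1 was the highest Normal mouse for each of the 4 genes. Normal 4 was the lowest for Drd1 and Tac1 only, while Normal 2 was lowest for Pdyn and Normal 3 for Chrm4.

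The order of the Normal mice for Drd1 and Tac1 was found in other striatal genes too. Of 14 tested genes from the lists of indirect pathway neurons and of both pathways described below, 11 had Normal 1 highest and Normal 4 lowest, as had 4.83% of all genes. These were the same 11 genes that were called lower in HFD mice. This order was looked at after the values were seen and was not tested.

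Differences of the 4 genes within diets were compared over the 8 mice after subtraction of the diet means, which removes the contrast that chose the genes. The closest pair was Tac1 and Pdyn (Pearson r 0.65, exact permutation p = 0.0938, adjusted p = 0.38; Spearman rho 0.66, exact permutation p = 0.0938, adjusted p = 0.563). With HFD 4 and Normal 4 left out, the mice with the most extreme Tac1 deviations, r was 0.54. Without HFD 4 alone it was 0.34, below the 0.89 of Drd1 and Tac1, so which pair was closest rests on that mouse. Drd1 and Tac1 gave r 0.47 (exact permutation p = 0.375, adjusted p = 0.75) and rho 0.28 (exact permutation p = 0.521, adjusted p = 0.625). Without Normal 1 and Normal 4, r was -0.57, so the positive sign of that pair rests on these 2 mice. Its r was 0.03 without Normal 4 alone, 0.11 without Normal 1 alone and 0.93 on FPKM without log, where Tac1 and Pdyn gave 0.48.

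By r the remaining pairs of these genes were no closer. By rho, Tac1 and Chrm4 (0.44) and Pdyn and Chrm4 (0.40) stood above Drd1 and Tac1 (0.28). Drd1 and Pdyn gave r -0.16 (exact permutation p = 0.675, adjusted p = 0.795) and rho -0.31 (p = 0.455, adjusted p = 0.625, both exact permutation). Drd1 and Chrm4 gave r 0.27 (exact permutation p = 0.795, adjusted p = 0.795) and rho -0.02 (exact permutation p = 0.986, adjusted p = 0.986). Tac1 and Chrm4 gave r 0.34 (exact permutation p = 0.514, adjusted p = 0.771) and rho 0.44 (exact permutation p = 0.368, adjusted p = 0.625). Pdyn and Chrm4 gave r 0.43 (exact permutation p = 0.127, adjusted p = 0.38) and rho 0.40 (exact permutation p = 0.222, adjusted p = 0.625). Leaving out the 2 mice with the most extreme deviations of the first gene changed these 4 values of r to -0.90, -0.35, 0.93 and 0.47. The tests were two-sided over every arrangement of mice within diets, r and rho were each adjusted over 6 pairs, and 0 of 6 passed 0.05, with 0 of 6 also at an unadjusted p below 0.05.

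**Figure D3:**
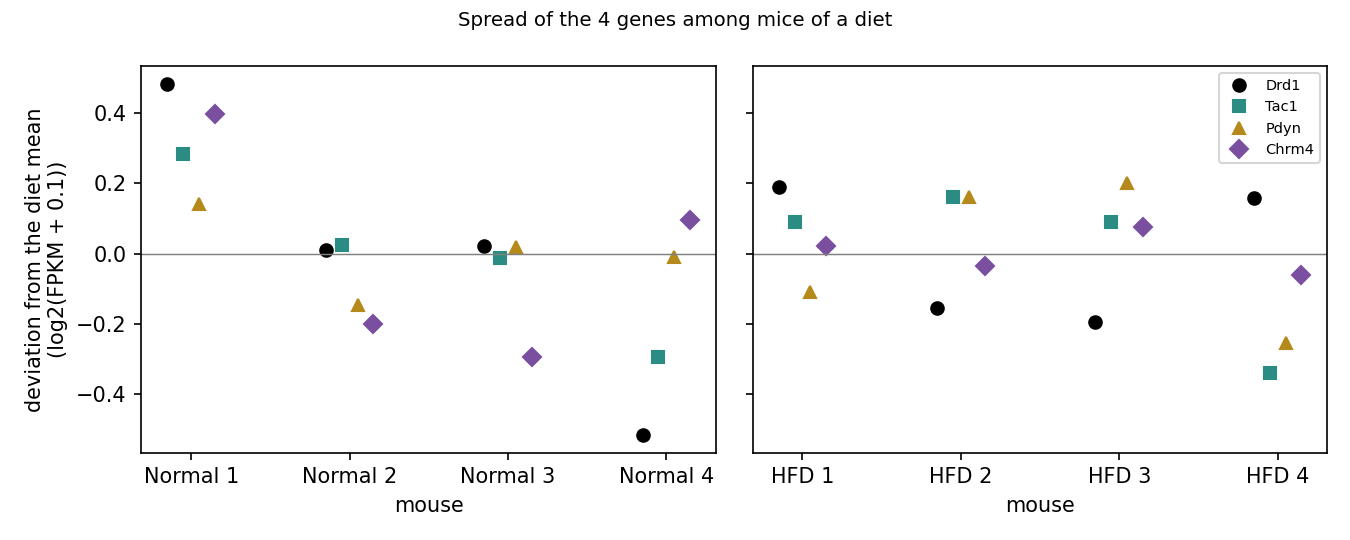
Deviation of each mouse from its diet mean on the log2(FPKM + 0.1) scale (y axis) for Drd1, Tac1, Pdyn and Chrm4, with Normal mice on the left and HFD mice on the right. All 4 genes are above the mean in Normal 1, and Tac1 and Pdyn are at their lowest in HFD 4, where Drd1 is above its diet mean.

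The genes whose profile over mice was most like that of each of the 4 were sought among the 9638 genes with mean FPKM of 5 or more, with Pearson r over the 8 mice as a description. Over all mice, with the diet difference included, the nearest to Drd1 were Gng7 (r 0.99), Adcy5 (0.99) and Ccnh (0.99). Gng7 and Adcy5 encode the G protein gamma subunit and the adenylyl cyclase that couple the D1 receptor to cAMP in the striatum. The nearest to Tac1 were Gramd3, Zc3h15 and Rgs9 (each 0.99). The nearest to Pdyn were Plk3, Klhl5 and Tdrp (each 0.97), and to Chrm4 they were Tspan7, Sgtb and Itpka (each 0.98).

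After subtraction of the diet means, Gng7 stayed among the 3 nearest to Drd1 (0.93), beside Bdh1 (0.93) and Enpp5 (0.93). Tac1 then had Sox8 (0.98), 2700062C07Rik (0.96) and Myo1e (0.95), and Pdyn had Ttyh1 (0.98), Mapk14 (0.98) and Anp32e (0.97). Chrm4 had Parp6, Tspan7 and Csf1r (each 0.99). Of these 22 genes, Gng7, Adcy5 and Rgs9 were called lower in HFD mice. With 9638 genes and 8 mice, high values of r arise in number by the search alone.

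Other genes of direct pathway neurons did not share one direction. Of 6 listed, Isl1 and Slc35d3 were not analysed here, and 2 of the 4 tested were called lower. Ebf1, a transcription factor, had 1.1, 3.3, 3.3 and 1.3 FPKM in Normal mice and 0.6 to 0.9 in HFD mice (log2 -1.32, limma with Benjamini-Hochberg adjusted p = 0.0191). Zfp521, a zinc finger cofactor, had 2.7, 8.1, 9.8 and 3.3 in Normal mice and 1.8 to 2.2 in HFD mice (log2 -1.35, limma adjusted p = 0.0208). Both were highest in Normal 2 and Normal 3, unlike Drd1 and Tac1, and neither was called without Normal 2 (log2 -1.09 and -1.14) or with Normal 1 and Normal 4 as the only Normal mice (-0.62 and -0.58). The sums of cerebellar and of thalamic markers, given below, were likewise highest in Normal 3 and in Normal 2, respectively. Whether the RNA of Ebf1 and Zfp521 came from such tissue was not tested. Eya1 (log2 0.46) and Sfxn1 (0.05) were not called.

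Of the genes of indirect pathway neurons, Adora2a, Drd2 and Penk stood at larger log2 differences than any of the 4 direct pathway genes, with no test of that difference. All 4 tested were called lower by limma with Benjamini-Hochberg adjustment, with a median log2 difference of -3.46. Adora2a, the adenosine receptor of these neurons, had a log2 difference of -4.07 (SE 0.24), and Drd2, the D2 receptor, had -3.67 (SE 0.29). Penk had 131.5, 114.4, 118.5 and 71.3 FPKM in Normal mice and 11.7, 9.3, 11.4 and 12.3 in HFD mice (log2 -3.24), and Gpr6, a receptor that signals to cAMP, had -1.63. Gpr52 and Sp9 were not analysed here. The summed FPKM of the list was 85.1 to 161 in Normal mice and 11.9 to 15.2 in HFD mice.

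Of 11 genes of striatal projection neurons of both pathways, 10 were tested and 7 were called lower (median log2 -1.37). Ppp1r1b (-1.70) stood beside Drd1 and Tac1, and Rgs9 (-2.10), Rxrg, a retinoid receptor (-2.28), and Syndig1l (-2.60) were lower still. Foxp1 (0.05) and Meis2 (-0.21), transcription factors that the cortex also uses, were not called, and Six3 was not analysed here.

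Of 21 genes leading from the D1 receptor to cAMP and its targets, 6 were called lower and 15 were not (median log2 -0.09). The lists share genes, so their counts are not separate. Ppp1r1b, Pde10a and Adcy5 are among these 6 and were already counted for both pathways. Drd2 and Penk likewise return below under dopamine receptors and opioid genes. Called lower with the largest differences were Ppp1r1b, Pde10a (-1.16) and Pde1b (-0.76), phosphodiesterases of striatal neurons, and Gng7 (25.4 ± 4.78 to 12.7 ± 0.597 FPKM, log2 -0.98, limma adjusted p = 0.000775). The more widely expressed Gnas (0.00) and Prkar1b, a regulatory subunit of protein kinase A (0.11), were not called. Gnal, the G protein alpha subunit of striatal D1 receptors, was not called and stood at -0.58, just inside the limit on size.

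**Figure D4:**
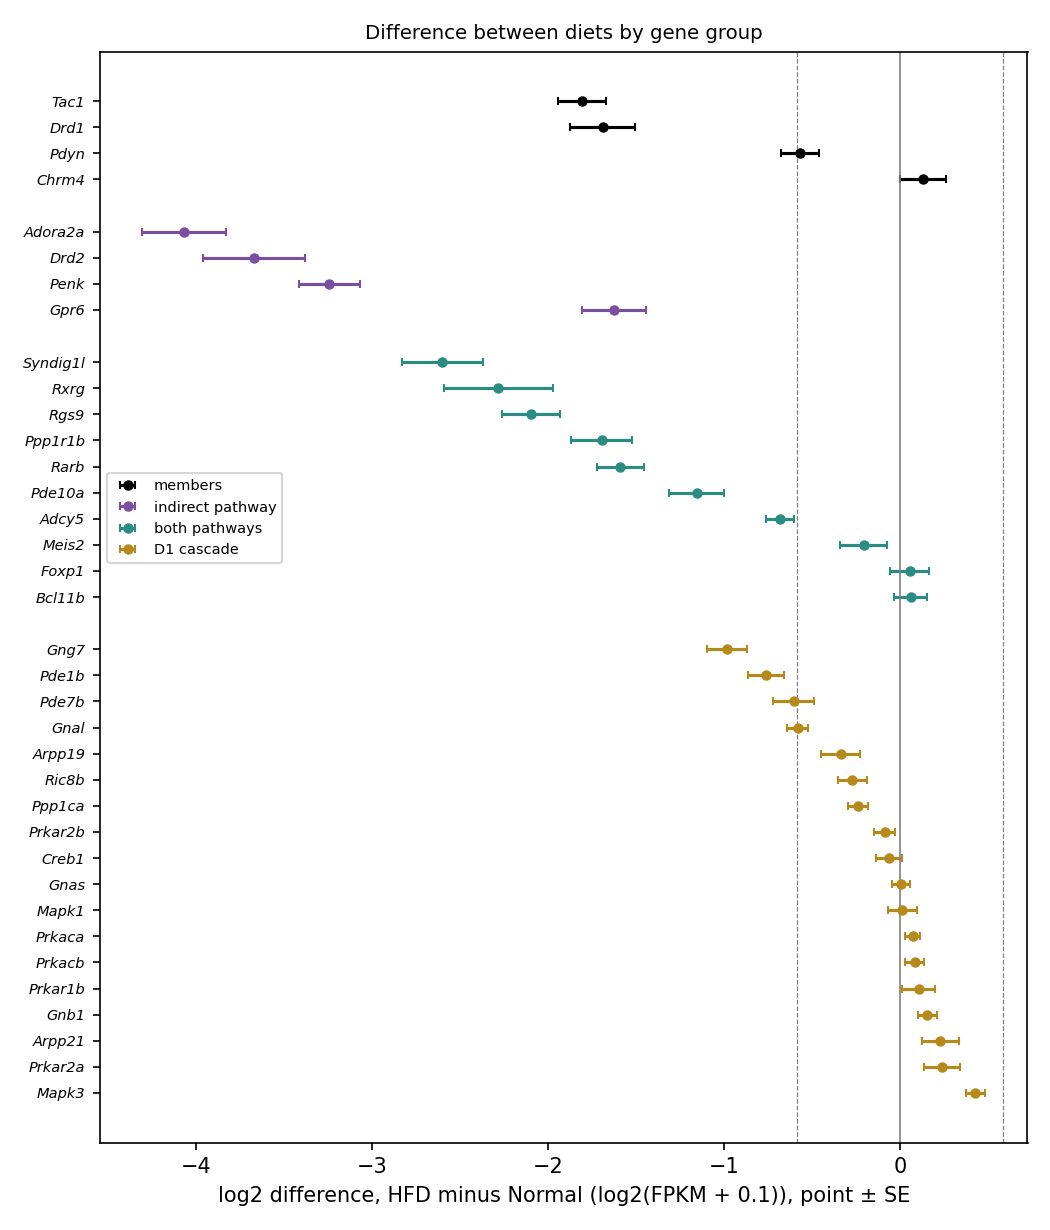
Log2 difference of FPKM + 0.1, HFD minus Normal (x axis, point ± SE), for Drd1, Tac1, Pdyn and Chrm4 (black) and for genes of the indirect pathway (purple), of both pathways (green) and of the D1 cascade (ochre), where genes on several lists are drawn once and dashed lines mark a 50% change. Drd1 (-1.69) and Tac1 (-1.81) lie among the genes of both pathways, Pdyn (-0.57) and Chrm4 (0.13) lie to their right, and the indirect pathway genes reach -4.07.

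Among the relatives of the 2 receptors, dopamine and muscarinic receptors differed. Drd2 and Drd5 were called lower, and Drd3 and Drd4 were not analysed here. Drd5, the other D1-class receptor, was at 1.35 ± 0.129 FPKM in Normal mice and 0.775 ± 0.320 in HFD mice (log2 -0.80, limma adjusted p = 0.0391), and its call was lost without any 1 of Normal 1, Normal 2, Normal 3, Normal 4, HFD 2 or HFD 3 (limma adjusted p 0.0599 to 0.0986), with the replicate block (0.0611) and with an added constant of 1 (log2 -0.42) or 0.5 (-0.57). Chrm1 was higher in HFD mice (22.3 ± 5.46 to 34.4 ± 1.38 FPKM, log2 0.66, limma adjusted p = 0.00979). That call was lost without Normal 3, the mouse with the lowest value (log2 0.52), and with Normal 1 and Normal 4 as the only Normal mice (0.35). Chrm2 (-0.09) and Chrm3 (0.25) were not called, and Chrm5 was not analysed here.

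Of the 6 genes listed for Gi/o signalling, which the M4 receptor uses, 1 was called lower. This was Rgs4 (log2 -0.62), a regulator that ends such signals, and its call was lost without Normal 1 (-0.48) or HFD 4 (-0.58). Gnao1 (0.31) and Gnai1 (-0.13), the alpha subunits, were not called.

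Some of the other peptide genes were called lower, as were 2.9% of all genes, and most were not called. Of the tachykinin genes other than Tac1, Tac2 was tested (log2 0.39, not called), and Tac4 and the receptor genes Tacr1, Tacr2 and Tacr3 were not analysed here. Of 7 opioid genes, Penk and Oprk1 were called lower and 5 were not called. Oprk1, the kappa receptor for dynorphin, was at 1.80 ± 0.424 FPKM in Normal mice and 0.975 ± 0.150 in HFD mice (log2 -0.81, limma adjusted p = 0.0101), close to the rounding step. With an added constant of 1 its log2 difference was -0.49 and the call was lost. Oprl1 (0.24) and Oprd1 (0.23) were not called. Of 10 genes of peptide storage and processing, Scg2 was called lower (-0.74), and Cpe (-0.13) and Chgb (-0.14) were not.

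Activity-dependent early genes, some of which rise with D1 receptor signalling, went both ways. Of 9 tested, Fos (log2 -1.24), Egr2 (-0.80) and Arc (-0.78) were called lower and Egr3 (1.02) higher, while Junb (-0.18) and Egr1 (0.20) were among the 5 not called.

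The tissue label was compared with markers of cells that the sample could hold. The 9 markers of cortical excitatory neurons had summed FPKM of 339 to 499 in Normal mice and 527 to 648 in HFD mice. HFD mice had 4 of them called higher, Fezf2 (log2 1.23), Tbr1 (1.04), Cux2 (0.77) and Emx1 (0.68, and 0.53 and not called without Normal 3), and none was called lower. Slc17a7 (0.49) and Lamp5 (0.08) were not called, though Slc17a7 was without Normal 4 (0.59). Of 8 markers of cortical interneurons, Pvalb was called lower (-1.07), Vip higher (0.65), and Sst (0.15) and Npy (-0.07) were not called. The call of Pvalb was lost without Normal 2, Normal 3, HFD 1, HFD 2 or HFD 4 (limma adjusted p 0.0767 to 0.0937), and that of Vip without Normal 3 (log2 0.49). With Normal 1 and Normal 4 as the only Normal mice, Emx1 (0.32), Cux2 (0.57), Vip (0.35) and Pvalb (-0.38) were not called.

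Some markers of other brain regions were also lower in HFD mice, with another order among the Normal mice than Drd1 and Tac1. Of 8 thalamic markers, 3 were called lower (2 to 7 without 1 mouse, with 7 without Normal 4). The summed FPKM of the list was 36.0 to 115 in Normal mice and 31.4 to 35.2 in HFD mice. Among Normal mice this sum was highest in Normal 2 and, like Drd1 and Tac1, lowest in Normal 4. Of 7 cerebellar markers, 5 were tested and 4 were called lower (3 to 5 without 1 mouse). Their sum was 14.7 in Normal 1, up to 263 in Normal 3, and 9.9 to 13.4 in HFD mice. Pcp2, which defines Purkinje cells, was not analysed here. The cerebellar sum was lowest in Normal 1, the mouse with the most Drd1 and Tac1. With Normal 1 and Normal 4 as the only Normal mice, an alternative chosen after seeing the data, Drd1 stood at -1.67 (SE 0.25), Tac1 at -1.80 (SE 0.18) and Pdyn at -0.63 (SE 0.13).

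Markers of other cell types changed as well. All 5 oligodendrocyte markers tested were called lower (median log2 -0.87), with sums of 1617 to 2704 in Normal mice and 1133 to 1576 in HFD mice. Of the 5 markers of dopamine neurons, Th (log2 -2.58) and Ddc (4.33 ± 1.93 to 1.98 ± 0.222 FPKM) were called lower, and Slc6a3, Slc18a2 and Pitx3 were not analysed here. Th had 2.0, 4.2, 3.5 and 5.6 FPKM in Normal mice 1 to 4 and 0.4 to 0.7 in HFD mice. It was lowest in Normal 1 and highest in Normal 4, the reverse of Drd1 and Tac1. Markers of striatal cholinergic interneurons (Chat, Slc18a3, Slc5a7 and Lhx8) were not analysed here. Of 5 choroid plexus markers, 2 were called lower, with sums of 343 to 727 in Normal mice and 20.9 to 942 in HFD mice, where HFD 4 was the high one. Without HFD 4, all 5 were called lower, and the 2 calls (Folr1 and Clic6) were lost without HFD 1, HFD 2, HFD 3, Normal 1, Normal 2 or Normal 3 and with the replicate block (limma adjusted p 0.0636 and 0.0981). With Normal 1 and Normal 4 as the only Normal mice, the calls of Ddc (log2 -0.51) and Mbp (-0.51), and that of Aqp4 named next (-0.57), were lost. Of 5 astrocyte markers, Aqp4 was called lower (-0.88), and 0 of 5 microglial markers were called by limma (1 of them, Tmem119, had an unadjusted p below 0.05). Which tissue each dissection took in, and the part of these markers in the differences of Drd1, Tac1 and Pdyn, was not tested.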

How the data were processed

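Per the labels and the study's methods, the authors trimmed reads (Trimmomatic), aligned them to mm10 (STAR) and computed FPKM with Cuffnorm on GENCODE M17 (GRCm38.p6). The deposited FPKM values are rounded to 0.1. A second pipeline of the authors, Salmon with edgeR, was not used here. No tool version is stated in the sources available.

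From the deposited FPKM, log2(FPKM + 0.1) was analysed for 13982 genes (mean FPKM 1 or more, no 0) with limma 3.58.1 (R 4.3.3), 4 Normal against 4 HFD mice, with a variance trend, two-sided, and Benjamini-Hochberg adjustment over all genes. The fit was tested on simulated data. The added constant understates changes of low genes. The design names limma in place of the authors' per-gene test. Correlations used exact permutations within diets (Python 3.11.15, scipy 1.17.1).

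The members and the 21 gene lists (145 genes, 125 with values) were chosen with earlier results of these data known. Named were all members, for each list up to 4 called genes of largest difference and the 2 highest genes not called, and for each member the 3 genes of highest r on each basis. Gnal, Tmem119 and the genes not analysed were named outside this rule, Gnal and Tmem119 after their values were seen. Some items are not reported here. Coordinates come from GENCODE M21 and promoters from RefSeq, both on GRCm38.p6. Alternatives changed the constant, filter, scaling, variance trend, replicate block and mice.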

Additional observations from a re-analysis of the deposited data

Results flagged for a closer look

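In each group of 4 mice, the highest or lowest value was compared with its nearest neighbour as a share of the group's range (Dixon's criterion at the 95% level). Over 194 groups, 11 values stood apart, where chance gives about 9.7.

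Tac1 was at 5.7 FPKM in HFD 4, against 7.7 to 8.1 in the other HFD mice. Without that mouse, its log2 difference between diets was -1.69. Sox8, the gene closest to Tac1 within diets, was lowest in HFD 4 as well (16.3 FPKM, against 18.5 to 18.8). It was found by its match with Tac1 over these mice, so this is not a separate observation.

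HFD 4 also stood apart in choroid plexus markers. Ttr was at 920.7 FPKM there, Folr1 at 7.2, Kl at 5.7 and Clic6 at 4.7, while the highest values in the other HFD mice were 73.4, 0.6, 1.5 and 1.3. Adora2a was at 0.6 FPKM in HFD 4 and 0.4 in the other HFD mice, and Klhl5 was at 15.1 in Normal 1 and 15.0 in the other Normal mice, which are gaps of 1 or 2 rounding steps.

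HFD 3 stood apart in oligodendrocyte markers, with Mobp at 402.0 FPKM, Mbp at 949.5 and Mag at 78.6, while the highest values in the other HFD mice were 311.8, 689.5 and 57.5. Tac1 was at 7.7 FPKM and Drd1 at 3.5 in that mouse.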

How the results depend on the processing

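Over 17 alternatives, the log2 differences of Drd1, Tac1 and Pdyn kept their direction and moved by less than 1 SD of the mice. Pdyn, just inside the limit on size in the main fit, passed the limits for a call in 4 of the 17. These were without Normal 2 (-0.62), HFD 2 (-0.62) or HFD 3 (-0.64), and with Normal 1 and Normal 4 as the only Normal mice (-0.63). Leaving out each mouse in turn gave -1.86 to -1.53 for Drd1, -1.90 to -1.69 for Tac1, -0.64 to -0.48 for Pdyn and 0.03 to 0.26 for Chrm4. With Normal 1 and Normal 4 as the only Normal mice (chosen after seeing the data), Chrm4 was at -0.12. The 997 genes called between diets (406 lower, 591 higher) became 603 (268 and 335) with an added constant of 1, 422 (172 and 250) with a mean FPKM minimum of 5, 604 (239 and 365) with those 2 Normal mice, and 771 to 1196 (312 to 487 lower, 459 to 709 higher) without 1 mouse. Of the genes in lists, 41 were called lower and 7 higher. This became 25 lower with that minimum, 3 higher with those 2 Normal mice, and 33 to 45 lower and 4 to 8 higher without 1 mouse (4 without Normal 3). With that minimum fewer genes were tested by construction, and for the others the cause was not tested.

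Of the correlations within diets, 3 changed sign with another scale or without 1 mouse. That of Drd1 and Tac1 also changed sign when both Normal 1 and Normal 4 were left out (-0.57). Without 1 mouse, r ranged from 0.03 to 0.89 for Drd1 and Tac1, 0.34 to 0.79 for Tac1 and Pdyn and 0.22 to 0.58 for Pdyn and Chrm4. Drd1 and Pdyn gave 0.26 on FPKM without log and 0.00356 without HFD 4 (range without 1 mouse -0.65 to 0.00356). Without Normal 1, Drd1 and Chrm4 gave -0.80 (range -0.80 to 0.66) and Tac1 and Chrm4 gave -0.31 (range -0.31 to 0.58).

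Of 45 named genes called outside the 4 members, 27 were called in every alternative. Of 48 named genes not called, 6 were called in some alternative and 15 turned in sign while staying uncalled. With Normal 1 and Normal 4 as the only Normal mice, log2 differences were -0.0346 for Chrm3, -0.0426 for Egr1, -0.10 for Foxp1, -0.12 for Itpka, -0.18 for Lamp5, -0.0931 for P2ry12, -0.062 for Prkar1b, -0.0878 for Sgtb, 0.0899 for Slc17a6, 0.00046 for Slc1a3, -0.0432 for Sst and -0.0345 for Tspan7. Without 1 mouse they ranged from -0.0399 to 0.0212 for Csf1r, -0.0467 to 0.14 for Foxp1, -0.0129 to 0.0202 for Gnas (-0.0018 with median-ratio rescaling), -0.0759 to 0.20 for Lamp5, -0.20 to 0.0414 for Npy and -0.00898 to 0.12 for Sgtb.

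The replicate numbers did not pair the mice. Deviations of same-numbered mice correlated at -0.04, -0.03, -0.11 and -0.07, and 0 of 4 Normal mice matched best with their own number. With the replicate number as a block, 896 genes were called, the calls of Drd5, Folr1 and Clic6 were lost, and the log2 differences stayed at -1.69 for Drd1, -1.81 for Tac1, -0.57 for Pdyn and 0.13 for Chrm4.

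With 4 mice a group and values rounded to 0.1, changes of genes near 1 FPKM (Ebf1, Drd5, Oprk1, and Drd2, Adora2a and Th in HFD mice) are coarse. Read depth is unknown.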
